A study of Mus musculus with 58 samples.

Results

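Small leucine-rich proteoglycans (SLRPs) were followed at the mRNA level in adipose stem cells (ASC) sorted from inguinal white adipose tissue (iWAT) of gonadectomized and control mice. The 10 genes are Dcn, Bgn, Aspn, Lum, Fmod, Prelp, Omd, Ogn, Podn and Ecm2. They were taken as the rows of the gene table whose Ensembl identifiers map to these symbols, 10 of 56953 rows. The rule is a list of names and uses no measured value, but the list was drawn up with earlier results of these data known. All 10 were among the 12464 genes that passed the filter on low counts. SLRPs are secreted proteins built on a curved stretch of leucine-rich repeats, many of them carrying chondroitin, dermatan or keratan sulfate chains. They bind collagen fibrils and set their diameter and spacing, and several also bind growth factors such as TGF-beta. In fat depots they are products of the fibroblast-like stromal cells, and Dcn and Lum are in common use as fibroblast markers.

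The cells were CD45-/CD31-/CD34+ cells from iWAT of C57BL6/J mice, measured as bulk RNA by Smart-seq3, which reads whole cDNAs and tags a share of the reads, those from the 5′ end, with a unique molecular identifier. ASC1 lacked DPP4 on the surface and ASC2 carried it, so that Dpp4 itself chose the cells. Males were castrated or left as controls and females were ovariectomized (ovariex in the labels) or left as controls, with surgery at 4 weeks of age and termination at 10 weeks after 4 h of fasting. Control males gave 7 ASC1 and 8 ASC2 libraries and castrated males 8 of each. Control females also gave 8 of each, but ovariectomized females 3 ASC1 and 8 ASC2 libraries. The study used 8 mice per treatment, and these are the libraries left after it removed samples with few detected genes. The controls of both sexes had no gonadectomy, and all mice shared the strain. Nothing in the labels says which libraries came from the same mouse, so the p-values below measure the spread between libraries.

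Total counts per library lay between 106566 and 1421547 with a median of 682423. Levels are CPM, reads relative to a TMM-scaled library size, and differences are log2 fold differences ± SE from edgeR's quasi-likelihood test, with Benjamini-Hochberg adjustment over all 12464 genes and a threshold of 0.05. Fewer cells of a type and less RNA per cell cannot be told apart in bulk samples. The summed level of the ASC2 markers Dpp4, Cd55, Arl4d and Pi16 followed the labels, although Dpp4 itself chose the cells. It was 1730 to 5023 CPM in ASC2 of male controls and 29.9 to 98.5 CPM in their ASC1. The populations were closest in ovariectomized females, at 509 to 2967 CPM in ASC2 and 242 to 418 CPM in ASC1. The fibroblast markers Pdgfra, Col1a1, Cd34, Ly6a and Thy1 had reads in every group.

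The sex labels were checked with Xist, expressed from the inactive X chromosome, and with the summed level of the Y-linked genes Ddx3y, Eif2s3y, Uty and Kdm5d. A library was counted as label-concordant when only the transcripts of the labelled sex reached 10 CPM. This held for 31 of the 58 libraries. Of the other 27, called against the label below, 16 reached the limit for the other sex only and 11 for both Xist and the Y-linked genes. The 11 were 2 ASC1 and 4 ASC2 libraries of male controls and 5 ASC2 libraries of female controls. Of male controls, 3 of 7 ASC1 and 4 of 8 ASC2 libraries agreed, and of female controls 3 of 8 and 2 of 8. All 8 castrated ASC1 libraries went against the label, with Xist at 51.9 to 118 CPM and the Y-linked genes at 4.72 CPM or less. All 8 castrated ASC2 libraries and all 11 libraries of ovariectomized females agreed. Groups are named by their labels throughout. For each comparison the number of SLRPs called over the label-concordant libraries is also given, except where castrated ASC1 leaves none. Differences over these libraries are given for some of the genes only.

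**Figure D1:**
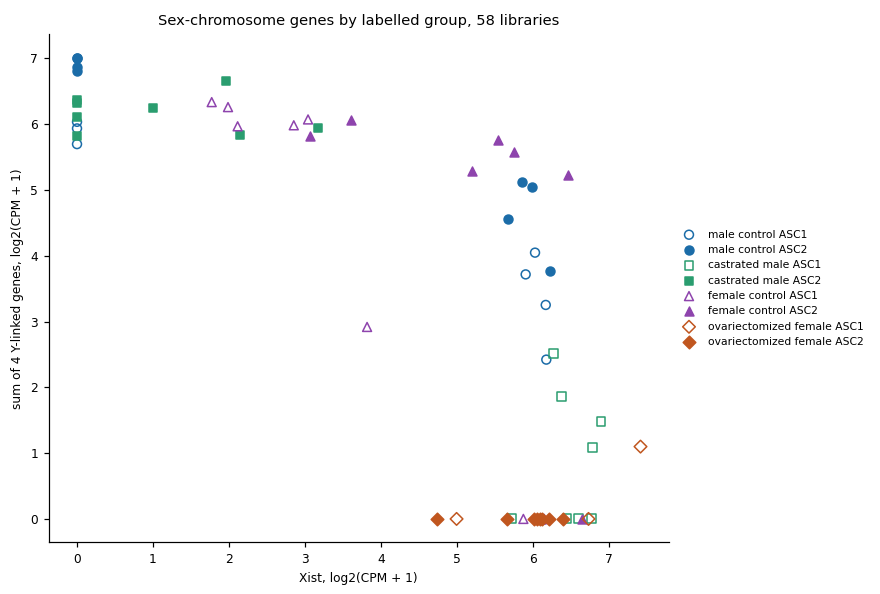
Each point is 1 of the 58 libraries, with Xist on the x axis and the sum of 4 Y-linked genes on the y axis, both as log2(CPM + 1). Colours and shapes are the labelled groups, open symbols are ASC1 and filled symbols ASC2, and the open squares of castrated ASC1 lie among the libraries with Xist and few Y-linked reads.

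The 3 ovariectomized ASC1 libraries stood apart from the other 55. They held fewer detected genes, 10151 on average, where the means of the other groups were 13190 to 13751. Their mean TMM factor was 0.834, against 0.974 to 1.04 in the other groups. They are the 3 that passed the study's own limit on detected genes, from 8 ovariectomized mice. Total counts were 188599, 256565 and 1114334, with 9122, 9698 and 11634 genes detected, the deepest being of well L4. In them 2.82 to 3.12% of the reads fell on the 10 SLRPs, against a range of 0.522 to 1.29% in all other libraries. Their fibroblast markers summed to 14550 to 22442 CPM, while the highest library of any other group had 9283 CPM. All 5 mammary epithelium markers (Epcam, Krt5, Krt14, Krt8 and Krt18) were without a read in them, and the 4 macrophage and leukocyte markers summed to 0 to 10.3 CPM. Results that rest on these libraries are given apart from the others below.

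Per kilobase of transcript, Dcn and Bgn were the leading SLRPs of every group but 1. In ASC2 of male controls Dcn (decorin, the main fibril-binding SLRP of connective tissue) reached 3710 CPM per kb and Bgn (biglycan, its closest relative) 1604 CPM per kb. Lum (lumican) came next with 230 CPM per kb, and Ogn (osteoglycin) followed with 122, Prelp with 97.1 and Aspn (asporin) with 50.4 CPM per kb. Omd (osteomodulin), Ecm2, Podn (podocan) and Fmod (fibromodulin, which takes part in collagen cross-linking) lay between 0.786 and 16.6 CPM per kb. In ASC1 of female controls Bgn was ahead, with 2097 CPM per kb against 1316 for Dcn. Bgn also led in castrated ASC1 (1828 against 1077), castrated ASC2 (1540 against 1439) and ovariectomized ASC2 (1636 against 1182 CPM per kb). Only ovariectomized ASC1 had Lum in second place, at 2348 CPM per kb after Dcn at 13622. Part of the Smart-seq3 reads start at the 5′ end, so that a scale per length is approximate, and Fmod rested on 0 to 8 reads per library outside ovariectomized ASC1.

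The spread between groups differed widely among the 10 genes on the CPM scale. Bgn varied least, from 3015 ± 934 CPM (SD, n = 8) in ASC2 of female controls to 5074 ± 1180 CPM (n = 8) in their ASC1, a ratio of 1.68. For the other 9 genes the ratio of the highest to the lowest group mean was 11.7 to 42.3, and the highest group was ovariectomized ASC1 each time. With that group left out the ratio of the next group to the lowest was 2.03 for Lum, 3.44 for Dcn, 10.3 for Prelp and 17.0 for Omd. When the 8 groups were put in order of their means, the ranges of neighbours overlapped in all 7 steps for Prelp, Bgn, Ogn, Omd and Aspn. For Dcn, Lum, Fmod, Podn and Ecm2 the only step without overlap was the one below ovariectomized ASC1.

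**Figure D2:**
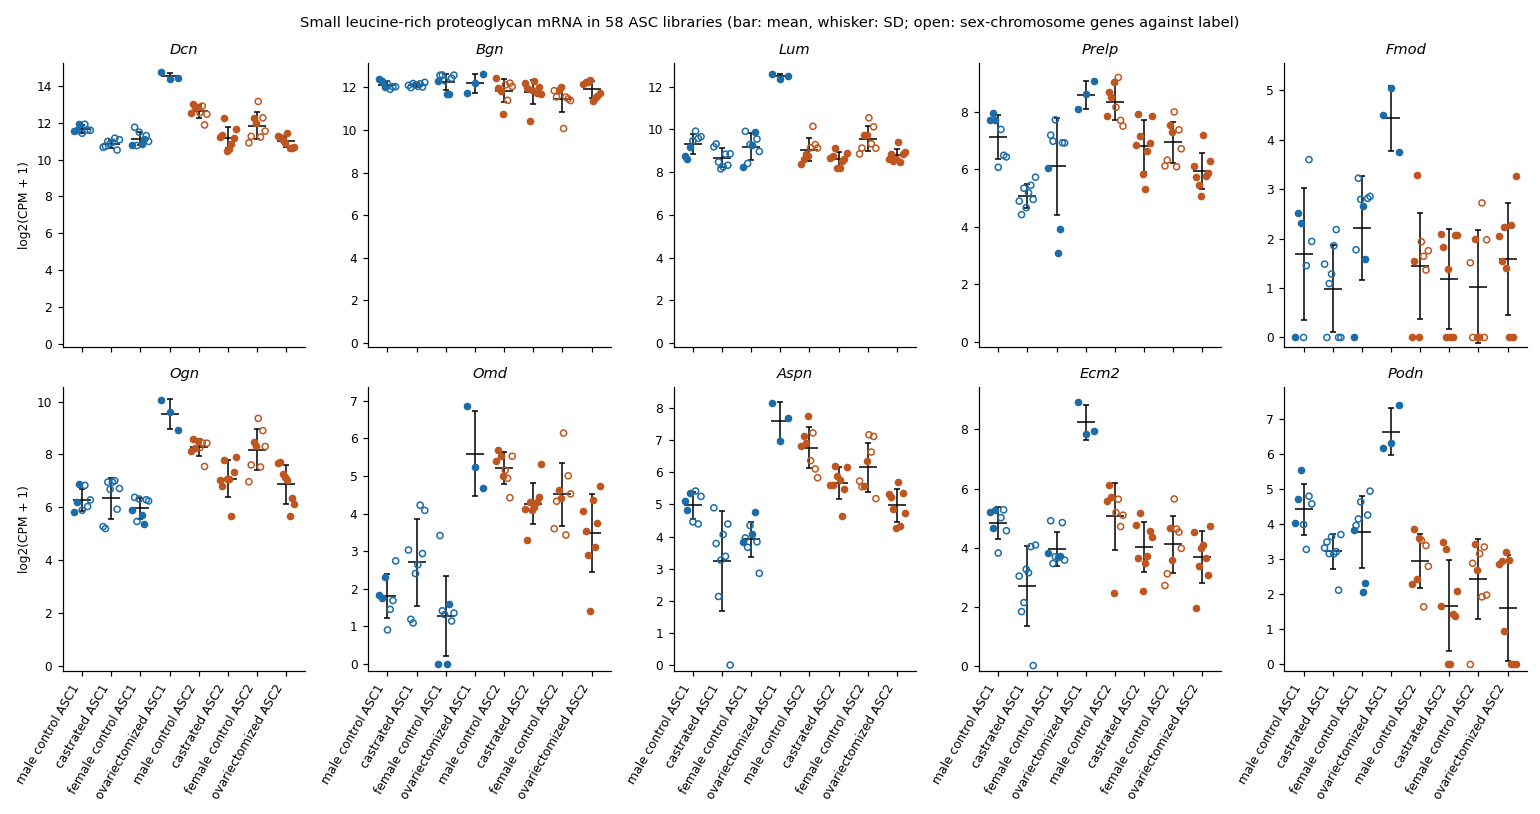
Each panel is 1 SLRP, the x axis holds the 8 groups and the y axis log2(CPM + 1), with 1 point a library, the mean as a bar and the SD as a whisker; blue is ASC1, orange ASC2, and open points are libraries whose sex-chromosome genes go against the label. Ogn, Omd and Aspn lie higher in ASC2 than in ASC1 of the controls, Bgn is nearly level, and the 3 ovariectomized ASC1 points are the highest of the panel for Dcn, Lum, Fmod, Podn and Ecm2.

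Most of these genes are neighbours on their chromosomes. In RefSeq's table for GRCm38.p6, a build that differs from the GRCm39 of the counts, Ecm2, Aspn, Omd and Ogn follow each other without another coding gene between them on chromosome 13, within the span of Cenpp. Dcn and Lum are adjacent on chromosome 10, next to the family members Kera and Epyc, and Prelp and Fmod are adjacent on chromosome 1, beside Optc. Bgn is on chromosome X and Podn on chromosome 4. The cluster on chromosome 13 holds the 3 genes with the largest differences between ASC2 and ASC1 in the controls and another, Ecm2, that did not pass the test there, so its promoters are shown, from 250 bases before to 50 bases after the RefSeq start, all on the plus strand of GRCm38.p6. Capitals mark matches, on either strand, to TATAAA (the TATA box), AGAACA (the core of the element bound by androgen and glucocorticoid receptors), TGANTCA (bound by AP-1) and GGAATG (bound by TEAD factors).
Ecm2, chr13:49504560-49504859: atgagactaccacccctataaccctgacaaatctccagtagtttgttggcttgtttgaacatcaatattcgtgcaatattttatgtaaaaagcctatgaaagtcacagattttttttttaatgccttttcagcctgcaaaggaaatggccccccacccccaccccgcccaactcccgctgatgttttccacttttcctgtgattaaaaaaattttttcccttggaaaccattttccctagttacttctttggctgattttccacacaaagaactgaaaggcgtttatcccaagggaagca
Aspn, chr13:49544193-49544492: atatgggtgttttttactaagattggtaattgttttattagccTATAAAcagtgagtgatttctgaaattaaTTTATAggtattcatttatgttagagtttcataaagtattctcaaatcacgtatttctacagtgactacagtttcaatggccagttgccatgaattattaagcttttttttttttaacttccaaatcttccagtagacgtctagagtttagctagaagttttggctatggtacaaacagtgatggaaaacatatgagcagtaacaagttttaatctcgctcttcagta
Omd, chr13:49582212-49582511: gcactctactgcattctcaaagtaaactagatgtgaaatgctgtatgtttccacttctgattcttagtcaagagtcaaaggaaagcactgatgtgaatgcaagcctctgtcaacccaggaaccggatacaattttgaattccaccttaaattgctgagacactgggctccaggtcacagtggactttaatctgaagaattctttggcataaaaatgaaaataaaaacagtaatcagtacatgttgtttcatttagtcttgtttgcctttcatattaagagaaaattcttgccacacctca
Ogn, chr13:49607765-49608064: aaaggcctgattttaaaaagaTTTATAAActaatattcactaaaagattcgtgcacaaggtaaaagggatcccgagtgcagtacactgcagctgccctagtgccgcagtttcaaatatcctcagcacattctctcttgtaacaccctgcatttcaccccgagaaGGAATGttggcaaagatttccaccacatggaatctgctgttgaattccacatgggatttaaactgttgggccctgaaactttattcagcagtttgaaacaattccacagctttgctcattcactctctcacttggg

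TATAAA was matched in the promoters of Aspn and Ogn, in both cases more than 170 bases before the start, and the 2 matches in Ogn overlap each other on opposite strands. GGAATG was matched once, in Ogn, 86 bases before the start. Neither the Omd nor the Ecm2 window held any of the 4 motifs. Of the 8 SLRPs with a promoter in the table, 2 had TATAAA, 1 (Bgn) had AGAACA, 1 had GGAATG and 0 had TGANTCA. Among all 32851 promoters of the same length, 13.6% held TATAAA, 19.0% AGAACA, 14.7% GGAATG and 7.81% TGANTCA. A match describes letters in these windows only.

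ASC2 was compared with ASC1 to ask how the SLRPs differ between the DPP4+ and the DPP4- stem cells. In male controls 5 of the 10 genes were higher in ASC2 (Omd, Ogn, Aspn, Prelp and Dcn) and Podn was lower, while 6.88% of all genes tested were higher and 5.30% lower. In female controls 4 were higher (Omd, Aspn, Ogn and Dcn) and Bgn was lower, against 3.54% higher and 2.58% lower among all genes. Over the label-concordant libraries 4 were higher in male controls (Omd, Aspn, Ogn and Dcn), where 3.89% of all genes were, and 3 in female controls (Ogn, Omd and Prelp), where 0.706% were. The median over the 10 genes was 0.74 in male and 0.39 in female controls, beside -0.01 and 0.00 over all genes tested.

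Omd, a keratan sulfate SLRP first known from bone, differed most. It lay at 0.872, 2.35 and 5.69 CPM (lowest, median and highest library) in ASC1 of male controls and at 20.5, 38.1 and 51.1 CPM in their ASC2, a 13.0-fold difference (3.70 ± 0.48, adjusted p = 1.01e-07 by edgeR). In female controls the values were 0, 1.52 and 9.68 CPM in ASC1 and 9.78, 21.2 and 69.7 CPM in ASC2 (3.59 ± 0.52, adjusted p = 1.0e-06). The ranges did not overlap in either sex, although ASC1 libraries held only 0 to 4 Omd reads each.

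Ogn, which regulates collagen fibril growth, and Aspn, an SLRP with an aspartate-rich stretch that binds TGF-beta and collagen, also had ranges without overlap in the controls of both sexes. Ogn rose from 56.0, 73.6 and 118 CPM in ASC1 to 186, 324 and 385 CPM in ASC2 of male controls (1.96 ± 0.30, adjusted p = 3.92e-06), and from 40.1, 66.9 and 82.2 CPM to 124, 315 and 657 CPM in female controls (2.36 ± 0.30, adjusted p = 2.6e-08). Aspn lay at 19.99, 33.1 and 41.7 CPM in ASC1 and at 55.8, 116 and 216 CPM in ASC2 of male controls (1.89 ± 0.31, adjusted p = 1.34e-05). In female controls it lay at 6.23, 13.9 and 26.1 CPM and at 35.2, 66.0 and 143 CPM (2.38 ± 0.33, adjusted p = 3.27e-07). Over concordant libraries of female controls the Aspn difference was 1.70 ± 0.46 and missed the threshold (adjusted p = 0.0763). Ecm2, their neighbour, overlapped between the populations, with differences of 0.50 ± 0.36 in male and 0.32 ± 0.40 in female controls that did not pass the test.

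Dcn was 1.99-fold higher in ASC2 of male controls, at 6522 ± 1465 CPM (n = 8) against 3280 ± 459 CPM (n = 7) in ASC1 (0.99 ± 0.23, adjusted p = 0.00183). Its ranges touched narrowly, the highest ASC1 library being at 3970 CPM and the lowest ASC2 library at 3784 CPM. In female controls the difference was 0.83 ± 0.22 (adjusted p = 0.00966), but 1 ASC2 library, of well E3, held 9180 CPM while the next highest had 4947 CPM. Without that library the Dcn difference was 0.56 (adjusted p = 0.107), and in the fit to only the groups compared it was 0.83 (adjusted p = 0.0728). Over concordant libraries the Dcn difference was 1.20 ± 0.36 (adjusted p = 0.137). Without well E3 the number of SLRPs called in this comparison fell from 5 to 3, Omd, Ogn and Aspn being those 3. The calls over all genes fell from 762 to 530.

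Prelp, a basic SLRP found at basement membranes, was higher in ASC2 of male controls (351 ± 151 CPM, n = 8, against 154 ± 73.1 CPM, n = 7; 1.18 ± 0.38, adjusted p = 0.0302), and over concordant libraries its difference was 0.79 (adjusted p = 0.327). In female controls its difference was 0.41 ± 0.37 (adjusted p = 0.625) over all libraries and 3.12 ± 0.68 (adjusted p = 0.0118) over the concordant ones, whose 3 ASC1 libraries averaged 29.0 CPM against 101 CPM in all 8. Prelp in ASC1 of female controls thus moved with the label check.

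Podn, which restrains smooth muscle growth in vessels, ran the other way. It was at 22.7 ± 12.02 CPM (n = 7) in ASC1 and 7.63 ± 4.08 CPM (n = 8) in ASC2 of male controls (-1.54 ± 0.43, adjusted p = 0.0124), with overlapping ranges and 1 to 46 reads per library; over concordant libraries the difference was larger and its error wider (-1.84 ± 0.66, adjusted p = 0.082). In female controls the Podn difference was -1.42 ± 0.47 (adjusted p = 0.0551). Over concordant libraries its sign was reversed and its error wide (0.67 ± 1.01, adjusted p = 0.885). Bgn was lower in ASC2 of female controls, at 3015 ± 934 CPM against 5074 ± 1180 CPM (n = 8 each; -0.75 ± 0.20, adjusted p = 0.0135), but over the concordant libraries its difference was 0.02 ± 0.41 and without well E3 the adjusted p was 0.0519. In male controls the Bgn difference was -0.21 ± 0.21. Lum and Fmod passed the test in neither sex, with differences between -1.44 and 0.37.

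Markers of other cells also differed between the control populations. In ASC2 of female controls 3 of 4 mammary epithelium markers tested were lower than in ASC1 (median sums 16.2 and 149.8 CPM), as was 1 of 4 endothelial markers (40.8 and 79.7 CPM), and 2 of 5 fibroblast markers were higher. In male controls 1 of 4 macrophage and leukocyte markers was lower in ASC2, although their median sum was higher there (160 CPM, against 123 CPM in ASC1). In the same comparison 1 of 5 fibroblast markers was higher. The part of these markers in the SLRP differences was not tested.

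In castrated males 3 SLRPs were higher in ASC2 than in ASC1, Aspn (2.05 ± 0.34, adjusted p = 2.32e-05), Prelp (1.93 ± 0.41, adjusted p = 0.000796) and Omd (1.42 ± 0.44, adjusted p = 0.0271), where 4.47% of all genes were higher. Dcn differed by 0.42 ± 0.22 (adjusted p = 0.244) and Ogn by 0.70 ± 0.28 (adjusted p = 0.112). The ranges of all 10 genes overlapped, and Omd had 1.13, 5.95 and 17.7 CPM in ASC1 and 8.92, 17.9 and 38.8 CPM in ASC2. No concordant comparison exists here, since all 8 ASC1 libraries went against the label. Only Xist reached the limit in these 8, and only the Y-linked genes did in the 8 ASC2 libraries. Population and the sex shown by these transcripts thus cannot be told apart in this comparison. In the same comparison 3 of 4 macrophage and leukocyte markers were higher in ASC2 (median sums 244 and 119 CPM), 2 of 3 mesothelium markers (3.33 and 68.0 CPM), 1 of 4 mammary epithelium markers and 1 of 5 mural markers were lower, and their part was not tested.

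The ovariectomized females gave the reverse, with 9 of the 10 SLRPs lower in ASC2 than in ASC1 and Bgn alone not passing the test (-0.29 ± 0.27). Of all genes 12.9% were lower, 11.8% in the fit to concordant libraries, where 9 SLRPs were again lower. The differences ran from -2.49 ± 0.48 for Omd to -4.67 ± 0.44 for Ecm2, and the ranges overlapped for Omd and Bgn. Without the library of well L4 the Omd difference was -1.38 (adjusted p = 0.147). This comparison rests on the 3 ASC1 libraries that stood apart, and the median over all genes was itself shifted by 0.37. In the same comparison 2 of the 4 ASC2 markers were still higher in ASC2, all 3 ASC1a markers (Col15a1, G0s2 and Cxcl14) and all 3 ASC1b markers (Clec11a, Fmo2 and F3) were lower, and all 4 mammary epithelium markers tested were higher; their part in the result was not tested.

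**Figure D3:**
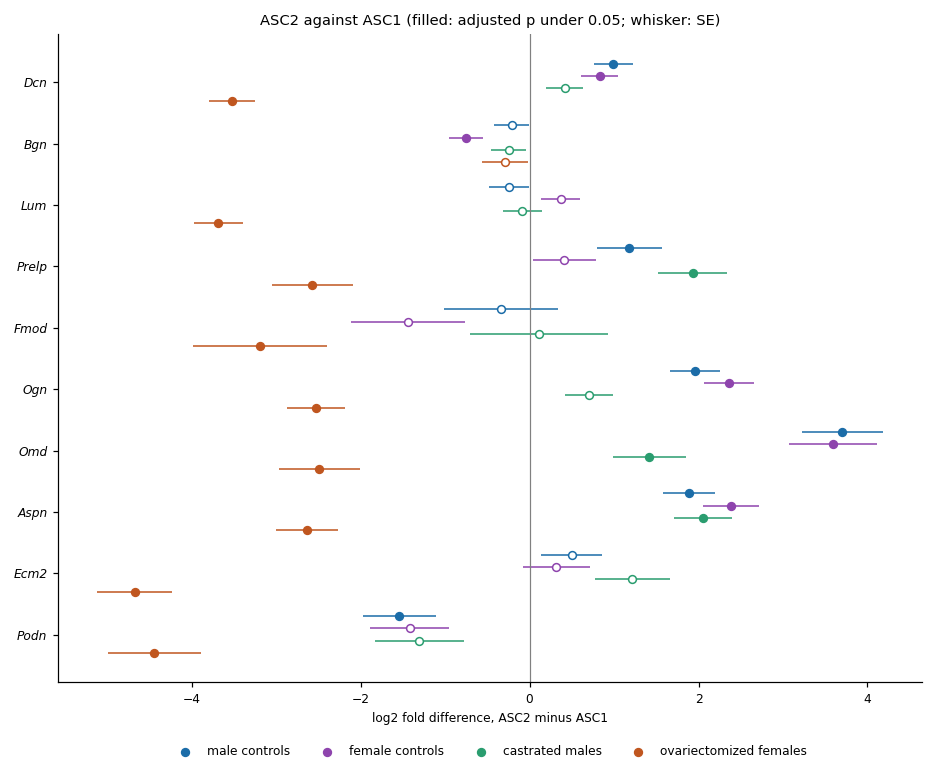
The x axis is the log2 fold difference of ASC2 minus ASC1 and each row is 1 SLRP, with 1 point for each of the 4 treatment groups and the SE as a whisker; filled points passed an adjusted p of 0.05. In these fits to all libraries Omd, Ogn and Aspn lie above 0 in both control groups, and Podn below 0 in all 4 groups. The ovariectomized females are far below 0 for every gene but Bgn. In castrated males all 8 ASC1 libraries went against the sex label and all 8 ASC2 libraries were label-concordant.

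Castration went with lower SLRP levels in ASC2. Of the 10 genes 5 were lower in castrated males (Dcn, Prelp, Ogn, Aspn and Ecm2) and 0 higher, while 4.32% of all genes were lower. Over the label-concordant libraries, 8 castrated against 4 control, the 5 were again lower, where 4.04% of all genes were. All 10 differences lay below 0 in both fits, and their median was -1.12 in the fit to all libraries beside 0.00 over all genes tested.

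Dcn had 1435, 2368 and 4852 CPM in castrated ASC2 and 3784, 6714 and 8231 CPM in control ASC2, and the highest castrated library lay inside the control range. The difference was 2.58-fold (-1.37 ± 0.22, adjusted p = 3.17e-05), and -1.52 ± 0.24 (adjusted p = 7.77e-05) over concordant libraries. Prelp had 39.2, 116 and 241 CPM after castration and 180, 328 and 587 CPM in controls, a 2.73-fold difference (-1.45 ± 0.37, adjusted p = 0.00951). The ranges of both genes overlapped between castrated and control libraries.

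Of the neighbours on chromosome 13, Ogn, Aspn and Ecm2 were lower and Omd did not pass the test. Ogn had 49.6, 134 and 239 CPM in castrated and 186, 324 and 385 CPM in control ASC2 (-1.10 ± 0.28, adjusted p = 0.00849), and Aspn 23.9, 50.2 and 72.6 against 55.8, 116 and 216 CPM (-1.17 ± 0.28, adjusted p = 0.00595). Ecm2, a matrix protein related to decorin, had 4.79, 15.7 and 34.8 CPM against 4.46, 41.0 and 68.5 CPM (-1.17 ± 0.36, adjusted p = 0.0358), with 1 control library below every castrated one. The Ecm2 difference stayed near this value but missed the threshold in the fit to only the groups compared (-1.15, adjusted p = 0.102), in libraries of 300000 counts or more (-1.16, adjusted p = 0.0541) and with limma voom (-1.20, adjusted p = 0.0514). Omd differed by -1.01 ± 0.36 (adjusted p = 0.0754) and by -1.19 ± 0.37 over concordant libraries (adjusted p = 0.0501). Bgn showed -0.06 ± 0.20 and Lum -0.49 ± 0.23 (adjusted p = 0.199), and the Lum difference was -0.02 ± 0.23 over concordant libraries.

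Markers moved beside these results. The ASC2 marker sum was 1730, 3314 and 5023 CPM in control ASC2 of males and 564, 1649 and 3144 CPM in castrated ASC2, although 0 of its 4 genes passed the test. Of the endothelial markers 3 of 4 were higher after castration (median sum 23.4 CPM in controls and 62.5 CPM after castration), and of the macrophage and leukocyte markers 2 of 4 (160 and 244 CPM). The fibroblast marker sum was 4684 to 6452 CPM in controls and 3523 to 5346 CPM after castration, with 0 of 5 called. The part of these markers in the SLRP differences was not tested.

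In ASC1 4 SLRPs were lower in castrated than in control males (Prelp, Ecm2, Aspn and Dcn), where 1.30% of all genes were lower. Prelp had 20.4, 32.6 and 51.9 CPM after castration and 66.3, 167 and 247 CPM in controls, without overlap (-2.19 ± 0.41, adjusted p = 0.000714). Dcn had 1471 to 2298 CPM against 2770 to 3970 CPM, also without overlap (-0.79 ± 0.22, adjusted p = 0.0388). Ecm2 differed by -1.89 ± 0.43 (adjusted p = 0.00674) and Aspn by -1.34 ± 0.35 (adjusted p = 0.0235), with overlapping ranges and the lowest castrated library at 0 reads for both. In libraries of 300000 counts or more the calls of Dcn (adjusted p = 0.112) and Aspn (adjusted p = 0.0538) were lost.

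These ASC1 values carry the sex discordance in full: all 8 castrated libraries and 4 of the 7 control libraries went against the label, so that castration and the discordance cannot be told apart here. The 3 mesothelium markers (Msln, Upk3b and Lrrn4) were higher in castrated ASC1 (median sum 68.0 CPM, against 0.872 CPM in controls). Of the macrophage and leukocyte markers 3 of 4 were lower, although their median sums were close (119 CPM after castration and 123 CPM in controls). The part of these markers was not tested.

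The castration difference itself was compared between ASC2 and ASC1. Omd alone passed, at -2.28 ± 0.67 (adjusted p = 0.0484), with 0.883% of all genes lower in this comparison. Its mean went from 2.77 CPM in control to 7.43 CPM in castrated ASC1, and from 37.3 to 19.5 CPM in ASC2. Ogn had -1.25 ± 0.41 (adjusted p = 0.0828), and Dcn -0.57 ± 0.31 (adjusted p = 0.382). The Omd call was lost in libraries of 300000 counts or more (adjusted p = 0.0681) and with limma voom (adjusted p = 0.103), and it uses the discordant castrated ASC1 libraries.

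Ovariectomy was compared with control females in ASC2, where 4 SLRPs were lower (Ogn, Aspn, Dcn and Lum) and 1.44% of all genes were lower. Ogn had 50.004, 136 and 211 CPM after ovariectomy and 124, 315 and 657 CPM in controls (-1.28 ± 0.28, adjusted p = 0.00431). Aspn had 18.1, 32.1 and 50.4 CPM against 35.2, 66.0 and 143 CPM (-1.25 ± 0.30, adjusted p = 0.012). The Dcn difference was -0.98 ± 0.22 (adjusted p = 0.00505), and that of Lum, which keeps collagen fibrils thin in the cornea, was -0.87 ± 0.23 (adjusted p = 0.0291). All 4 ranges overlapped.

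These calls depended on which controls were used. Without well E3 only Ogn passed (-1.07, adjusted p = 0.0366 by edgeR), and the calls over all genes fell from 261 to 98. Over concordant libraries, 8 ovariectomized against 2 control, edgeR called 0 SLRPs in either direction, and 0.0241% of all genes were called. An unadjusted p under the threshold was held by 5 of the 10 SLRPs and by 658 of all genes tested. The estimates for Dcn (-1.11 ± 0.29) and Ogn (-1.32 ± 0.37) were close to those over all libraries. The 4 mammary epithelium markers tested were all higher after ovariectomy (median sum 251 CPM, against 16.2 CPM in controls), 2 of 4 ASC2 markers were lower (median sums 1469 and 2863 CPM), 2 of 5 fibroblast markers were lower (6431 and 7422 CPM), and the mural marker sum was 814 to 2064 CPM against 177 to 1402 CPM. Their part in the SLRP differences was not tested.

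The castration and ovariectomy differences in ASC2 were set against each other as well. No SLRP passed in edgeR, and DESeq2 and limma voom also called 0. Of all genes edgeR called 0.602% in either direction, and 0.00% over concordant libraries. In the fit to all libraries 0 SLRPs and 1431 of all genes tested had an unadjusted p under the threshold. Over concordant libraries 1 SLRP and 750 of all genes tested did. The errors were wide for the genes with few reads, with -0.98 ± 1.02 for Fmod and -0.81 ± 0.75 for Podn, and narrower for Ogn (0.18 ± 0.39), Aspn (0.08 ± 0.40) and Dcn (-0.38 ± 0.31).

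In ASC1 ovariectomy went with very high SLRP levels in the 3 libraries that stood apart. Of the 10 genes 9 were higher than in control females and 12.7% of all genes were, and over concordant libraries 8 were higher and 9.52% of all genes. Dcn was at 21694, 22584 and 27563 CPM in the 3 libraries, against 1739, 2129 and 3471 CPM (lowest, median and highest) in control ASC1, a 10.3-fold difference (3.37 ± 0.27, adjusted p = 4.58e-15). Lum was at 5200, 5815 and 6228 CPM against 302, 620 and 960 CPM (3.19 ± 0.29, adjusted p = 2.55e-13). Ecm2 was at 229, 248 and 488 CPM against 9.997, 11.9 and 29.0 CPM, 20.5-fold (4.36 ± 0.43, adjusted p = 4.92e-12). For all 9 genes the 3 libraries lay above every control library.

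The remaining genes were less even among the 3 libraries. Omd was at 24.8, 36.7 and 115 CPM, from 4, 8 and 101 reads, against 0 to 9.68 CPM in controls (4.93 ± 0.58, adjusted p = 6.99e-10). Aspn (3.77 ± 0.39), Ogn (3.61 ± 0.35), Podn (6.51-fold) and Prelp (1.95 ± 0.47) passed too, and Fmod passed narrowly on 2 to 19 reads (2.12 ± 0.75, adjusted p = 0.0233), a call lost without well L4 (adjusted p = 0.0996) or N4 (adjusted p = 0.0877). Bgn was at 3462, 4695 and 6397 CPM, inside the control range of 3280 to 6143 CPM at its lower end, with a difference of -0.07 ± 0.28. The median over all genes tested was shifted by -0.34 in this comparison with TMM scaling and by -0.66 on library totals, and the 9 genes lay above 0 and thus further above that median. On library totals 8 of the 9 passed, Fmod having an adjusted p of 0.0517. The fibroblast markers rose in the same libraries (4 of 5 called), 3 of 4 ASC2 markers and 2 of 3 ASC1a and ASC1b markers each were higher, and 3 of 4 mammary epithelium markers were lower; their part was not tested.

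Control males and females, as labelled, were compared last. In ASC1 4 of 7 male and 5 of 8 female libraries went against the label, and in ASC2 4 of 8 and 6 of 8. Sex and the discordance thus cannot be told apart in the fits to all libraries. In ASC1 edgeR, DESeq2 and limma voom called 0 SLRPs, and edgeR called 0.289% of all genes. An unadjusted p under the threshold was held in edgeR by 3 SLRPs and by 1039 of all genes tested. Over concordant libraries, 3 of each sex, Prelp alone was higher in males (3.49 ± 0.65, adjusted p = 0.00466; 223 ± 20.9 against 29.0 ± 31.8 CPM), with 0.513% of all genes higher. In ASC2 Prelp (1.37 ± 0.37, adjusted p = 0.014) and Dcn (0.67 ± 0.22, adjusted p = 0.0498) were higher in males, and 3.63% of all genes were. The Dcn call was lost in the fit to only the groups compared (adjusted p = 0.204) and under 6 other alternatives. In the same comparison 2 of 5 mural, 1 of 4 endothelial and 1 of 5 fibroblast markers were lower in males, and in ASC1 1 of 3 ASC1a markers was higher. Their part was not tested.

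Prelp lay at 180, 328 and 587 CPM in male and 67.1, 131 and 255 CPM in female ASC2, with overlap. Over concordant libraries, 4 male and 2 female, edgeR called 0 SLRPs in ASC2, and 2.38% of all genes were called in either direction. In that fit 4 SLRPs and 2076 of all genes tested had an unadjusted p under the threshold. Prelp then differed by 1.16 ± 0.56 (adjusted p = 0.283) and Lum by -1.07 ± 0.31 (adjusted p = 0.0563). Dcn differed by 0.69 ± 0.36, an estimate near the one over all libraries.

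**Figure D4:**
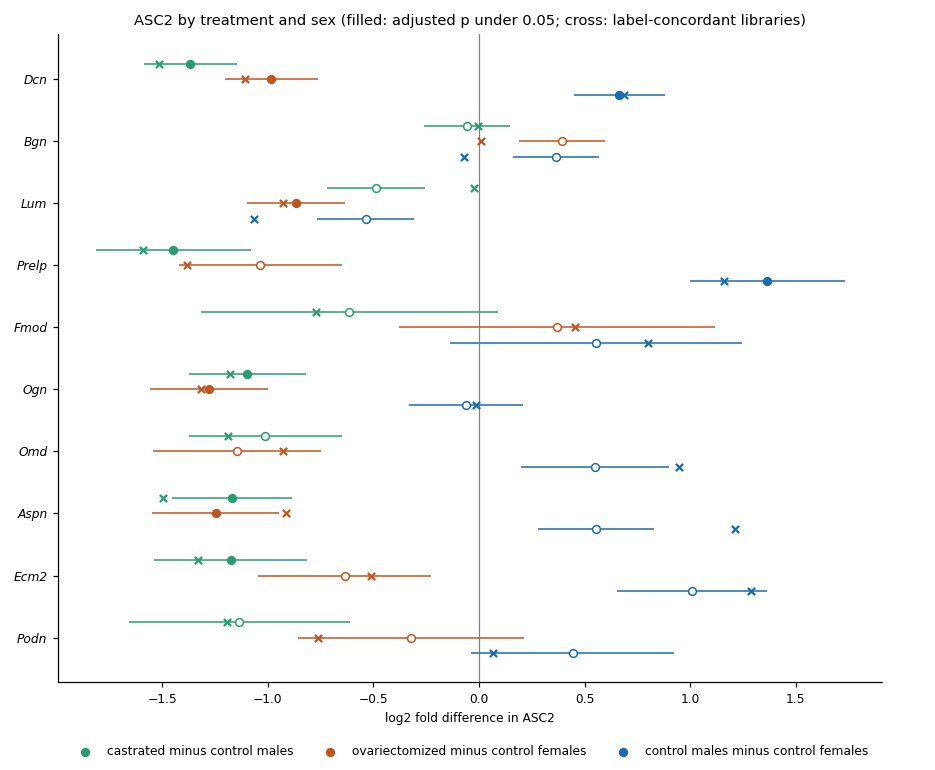
The x axis is the log2 fold difference in ASC2 and each row 1 SLRP, for castrated minus control males, ovariectomized minus control females and control males minus control females, with the SE as a whisker; filled points passed an adjusted p of 0.05 and crosses are the same differences over label-concordant libraries. The castration points lie below 0 in all 10 rows, as do their crosses. The differences of Dcn and Prelp between controls labelled male and female lie above 0.

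The SLRPs varied together in part over the libraries. These correlations of log2(CPM + 1) are descriptions over libraries that share groups, depth and sort, and they take the 55 libraries without ovariectomized ASC1. Dcn went with Prelp (Pearson's r = 0.79), Ogn (0.75) and Ecm2 (0.65), and Ogn with its neighbour Omd (0.76). Bgn went against Aspn (-0.50), Omd (-0.44), Ogn (-0.43) and Dcn (-0.39). The adjacent pair Dcn and Lum had r = 0.50, and the adjacent pair Prelp and Fmod 0.04.

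Among 6419 genes with a mean of at least 20 CPM, those most like an SLRP over all 58 libraries were found by the same r, for the 7 SLRPs that reached that mean themselves (all but Fmod, Omd and Podn). Dpep1, a membrane dipeptidase, was the nearest gene to Dcn (r = 0.93) and to Prelp (r = 0.84). Apod, an apolipoprotein of stromal cells, was the nearest to Ecm2 (r = 0.83). Without ovariectomized ASC1 these values were 0.89 for Dcn, 0.86 for Prelp and 0.70 for Ecm2. Cd34, the surface marker used in the sort, was nearest to Aspn (r = 0.88), and Fstl1, a secreted follistatin-like protein, nearest to Ogn (r = 0.89). Bgn was nearest to Colgalt1, which glycosylates collagen hydroxylysine (r = 0.84), and without ovariectomized ASC1 also near Plod3, a lysyl hydroxylase (r = 0.85). Ogn was then nearest to the ASC2 marker Cd55 (r = 0.87) and Lum to Eln, elastin (r = 0.61).

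Genes that work with the SLRPs were taken from fixed lists. Their counts are read against the shares over all genes tested, which in ASC2 against ASC1 were 6.88% higher and 5.30% lower for male and 3.54% and 2.58% for female controls. In ASC2 4.32% of all genes were lower and 2.65% higher after castration, and 1.44% were lower after ovariectomy. Fewer list genes passed over concordant libraries, where 8 of the 18 called between ASC2 and ASC1 of male controls, 3 of the 17 of female controls, 4 of the 11 called after castration in ASC2 and 0 of the 7 called after ovariectomy in ASC2 were called again. The sign was the same for 18, 16, 11 and 7 of them.

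Of the 7 further SLRP family genes listed, Tsku (tsukushi) was the only one that passed the low-count filter, and it differed only where ovariectomized ASC1 was involved, being lower there than in control females (-2.59 ± 0.74, adjusted p = 0.00485), opposite in sign to the 9 SLRPs. Of 21 collagen fibril partners 4 were higher and 1 lower in ASC2 of male controls and 6 were higher in ASC2 of female controls. Col14a1, a collagen that sits on fibril surfaces, was higher in both (3.35 ± 0.47 and 2.96 ± 0.41), and again over concordant libraries (3.03 ± 0.67 and 5.18 ± 0.86). Tnxb, the matrix protein tenascin X, was higher in both too (2.39 ± 0.42 and 2.01 ± 0.40), and over concordant libraries it passed in female controls (3.49 ± 0.73, adjusted p = 0.00738) but not in male controls (1.53 ± 0.56, adjusted p = 0.086). After castration 3 partners were lower in ASC2, Col6a2 (-0.93 ± 0.26), Tnxb (-1.23 ± 0.38) and Col6a1 (-0.74 ± 0.23), with a list median of -0.24 beside 0.00 over all genes. None of the 3 passed over concordant libraries, with -0.99 ± 0.34, -0.95 ± 0.41 and -0.76 ± 0.32. After ovariectomy 3 were lower in ASC2, Eln (-1.93 ± 0.31), Col3a1 (-0.85 ± 0.24) and Tnxb (-1.37 ± 0.39), and they depended on the controls as the SLRPs did. Without well E3 Eln alone of the 3 passed (-1.74, adjusted p = 0.000829), and the calls over all genes fell from 261 to 98. Over concordant libraries none of the 3 passed, Eln being at -2.02 ± 0.43 (adjusted p = 0.0904).

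Of 23 tested genes for chondroitin and dermatan sulfate chains, 2 were higher and 1 lower in ASC2 of male controls at a list median of -0.27, and 1 was higher and 1 lower in female controls, counts near the shares over all genes. After castration 0 were higher and 2 lower in ASC2. Ugdh, which makes the glucuronic acid precursor of the chains, was higher in ASC2 than in ASC1 of male (1.72 ± 0.26, adjusted p = 4.38e-06) and female controls (1.00 ± 0.25, adjusted p = 0.00639). Over concordant libraries it passed in males (2.02 ± 0.41) and not in females (0.85 ± 0.46, adjusted p = 0.508). It was lower in castrated ASC2 (-1.15 ± 0.25, adjusted p = 0.00172), together with Papss2 (-0.77 ± 0.24), which makes the sulfate donor, and both passed over concordant libraries (-1.41 ± 0.30 and -1.12 ± 0.28). Csgalnact1, which starts the chondroitin chain, was lower in ASC2 of both control sexes (-0.99 ± 0.30 and -1.28 ± 0.29), in neither over concordant libraries (-0.77 ± 0.46 and -0.69 ± 0.55). Of 7 tested genes for keratan sulfate chains, Chst2, a sulfotransferase, was lower in castrated ASC2 (-1.69 ± 0.45, adjusted p = 0.0145) and higher in ASC2 of control males than of control females (2.23 ± 0.47, adjusted p = 0.00153). Both Chst2 differences passed over concordant libraries (-1.99 ± 0.47 and 3.64 ± 0.86).

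Of 20 tested growth factors and receptors that SLRPs bind, 2 were higher and 1 lower in ASC2 of male controls and 1 was lower in female controls. Ccn4, a matricellular factor, was lower in ASC2 of male (-1.21 ± 0.25) and female controls (-1.26 ± 0.24), and Tgfb2 (2.39 ± 0.57) and Bmp4 (1.75 ± 0.58) were higher in ASC2 of male controls. Over concordant libraries Ccn4 passed in male controls (-1.63 ± 0.39) and not in female controls (-0.90 ± 0.47), and Tgfb2 passed (2.59 ± 0.83) while Bmp4 did not (1.67 ± 0.82). In castrated ASC2 1 was lower and 1 higher. Tgfbr3, the TGF-beta co-receptor betaglycan, was the lower one (-0.75 ± 0.23, adjusted p = 0.0304), and Kdr, a VEGF receptor that also stood among the endothelial markers, the higher one (1.68 ± 0.46, adjusted p = 0.0162). Neither passed over concordant libraries (-0.86 ± 0.29 and 1.46 ± 0.63). The castration difference of Tgfbr3 was lower in ASC2 than in ASC1 (-1.25 ± 0.32, adjusted p = 0.02), as was that of Tgfbr2, another TGF-beta receptor (-1.40 ± 0.36, adjusted p = 0.0173), and both rest on the castrated ASC1 libraries that all went against the label.

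Of 10 tested proteases that cut SLRPs, 1 was lower in ASC2 of male controls, and 1 was higher and 2 lower in ASC2 of female controls. Mmp3 (stromelysin) was lower in both (-0.93 ± 0.21 and -1.64 ± 0.21), in neither over concordant libraries (-0.60 ± 0.30 and -0.63 ± 0.37). Of 17 other extracellular proteoglycans 2 were higher and 4 lower in ASC2 of male controls and 2 higher and 2 lower in ASC2 of female controls. Gpc3, a membrane-anchored glypican, was higher in both control sexes (2.51 ± 0.45 and 1.86 ± 0.37), and Sdc3, a syndecan, was lower in both (-1.44 ± 0.33 and -1.65 ± 0.33). Over concordant libraries Gpc3 passed in male controls (2.34 ± 0.64) and not in female controls (2.41 ± 0.67, adjusted p = 0.0904), and Sdc3 also passed in male (-2.11 ± 0.49) and not in female controls (-0.32 ± 0.64).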

How the data were processed

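Bulk Smart-seq3 libraries of sorted ASC1 and ASC2 were measured in 8 groups. The authors trimmed reads with NGmerge, used STAR 2.7.10a for quality control and quantified with Salmon 1.9.0 on Gencode transcripts of GRCm39, summed reads with and without identifiers and removed libraries with few detected genes. The deposited values are estimated counts that were not normalized, 15.0% of those above 0 not being whole. The 58 columns were assigned to groups by the sample labels. In R 4.3.3 the counts were rounded and tested with edgeR 4.0.16 (TMM, glmQLFit, glmQLFTest) with 1 coefficient a group, on the 12464 genes for which more than 3 libraries held 5 or more reads. The SE is the absolute log2 fold difference over the square root of F. Symbols were matched by identifier to Gencode on GRCm38 for 12371 genes tested, and transcript lengths are those of the longest principal transcript there. The members and gene lists were chosen with earlier results of these data known. Named list genes were those called, up to 4 with the smallest adjusted p per comparison. The method was checked on simulated data, and replicates for copies of one another. With 200 genes changed 3-fold, edgeR recovered 133 for castration in ASC2, with 6 false calls. For ovariectomy in ASC1 it recovered 74, with 3 false calls. The simulation changed equal numbers of genes up and down. In the data 4336 genes were called for ovariectomy in ASC1 and the median was shifted by -0.34, so these rates may not hold there.

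As alternatives, normalization was by RLE or by library size only, genes were not filtered or filtered by filterByExpr, and robust estimation was used. Further ones were library sizes without the 10 genes, label-concordant libraries, libraries of at least 300000 counts, only the groups compared, a block by well letter, limma 3.58.1 voom with duplicateCorrelation, DESeq2 1.42.0, and each ovariectomized ASC1 library left out. Leaving out all 3 of these, or well E3 of female control ASC2, was added after the data had been seen.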

Additional observations from a re-analysis of the deposited data

Results flagged for a closer look

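In each group of 4 to 10 libraries the highest or lowest library was compared with its nearest neighbour by Dixon's criterion. Of 70 sets of 1 SLRP in 1 group 11 had such a library, where chance flags about 1 in 20 of independent sets with normally distributed values. The sets here share libraries and some rest on few reads, so that this rate does not hold for them and the count is a description only. Well E3 of female control ASC2 was far above the others for Dcn (9180 CPM, next 4947), Omd (69.7 CPM, next 31.2) and Ecm2 (49.1 CPM, next 24.6), and it held both Xist (87.1 CPM) and the summed Y-linked genes (36.4 CPM). Well M3 of ovariectomized ASC2 was high for Lum (673 CPM, next 488) and Prelp (144 CPM, next 77.1). Lum was high in well F1 of male control ASC2 (1130 CPM, next 624.6). Omd was high in well P1 of castrated ASC2 (38.8 CPM, next 20.8) and in well B4 of female control ASC1 (9.68 CPM, next 2.00). Fmod was high in well G2 of male control ASC1 (11.1 CPM, next 4.70), well C1 of male control ASC2 (8.78 CPM, next 2.83) and well P3 of ovariectomized ASC2 (8.57 CPM, next 3.85), each from 8 or fewer reads.

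The castration difference of Omd was lower in ASC2 than in ASC1 (-2.28 on the log2 scale, by the interaction term of edgeR). For ovariectomy the difference between populations was not tested. For 5 SLRPs every ovariectomized library lay above the control mean in ASC1 and below it in ASC2. The log2 differences were 3.37 and -0.98 for Dcn, 3.19 and -0.87 for Lum, 3.61 and -1.28 for Ogn, 4.93 and -1.15 for Omd, and 3.77 and -1.25 for Aspn, although Omd did not pass the test in ASC2 (adjusted p = 0.125). The ASC1 values rest on the 3 libraries that stood apart.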

How the results depend on the processing

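Of the 48 SLRP differences past the threshold, RLE size factors and DESeq2 kept all 48 in direction and call. Over all alternatives 636 values were recomputed, of which 593 kept both, 42 kept the direction but missed the threshold and 1 reversed, Bgn between ASC2 and ASC1 of female controls, at 0.023 over label-concordant libraries. Of 150 group levels 4 moved by more than 1 SD. The cause of these changes was not tested, except that label-concordant fits hold fewer libraries.

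The number of SLRPs called between ASC2 and ASC1 of female controls went from 5 to 3 over concordant libraries and to 3 without well E3. The calls over all genes there went from 762 to 94 and to 530. For castration in ASC1 the number of SLRPs went from 4 to 2 in libraries of 300000 counts or more, and that of all genes from 294 to 167. For ovariectomy in ASC2 the number of SLRPs went from 4 to 0 over concordant libraries and to 1 without well E3. That of all genes went from 261 to 3 and to 98. Between the sexes the number of SLRPs went from 0 to 1 in ASC1 over concordant libraries, and that of all genes from 36 to 87. In ASC2 the number of SLRPs went from 2 to 0 over concordant libraries, while it was 3 without well E3. It was 1 with no count filter, robust estimation or library sizes without the 10 genes. It was also 1 in libraries of 300000 counts or more, without ovariectomized ASC1 and in only the groups compared. Dcn was the gene lost in each fit with 1 call. The calls over all genes went from 810 to 297 over concordant libraries, 652 without well E3 and 373 to 857 in the other fits named. For the castration difference between ASC2 and ASC1 the number of SLRPs went from 1 to 2 with no count filter or DESeq2. It went to 0 in libraries of 300000 counts or more or with limma voom. The calls over all genes went from 301 to 454, 402, 255 and 265 in these fits. Leaving out 1 ovariectomized ASC1 library at a time gave 8 to 9 SLRP calls in both comparisons that use them, and 2328 to 4179 calls over all genes.

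Nothing in the labels says that a well letter marks a shared mouse. Deviations of same-letter ASC1 and ASC2 libraries correlated over 0.1 in 6 of 7 pairs of male controls, 4 of 8 of female controls, 1 of 8 of castrated males and 0 of 3 of ovariectomized females, so that no group had every pair over 0.1 and the letters were not treated as pairs. A block by letter gave 6, 4, 3 and 8 SLRP calls for male controls, female controls, castrated and ovariectomized mice between ASC2 and ASC1. Without the block 6, 5, 3 and 9 were made. Over all genes the calls were 1397, 719, 996 and 2953 with the block and 1519, 762, 1133 and 4418 without it. The SLRP calls lost were Dcn in female controls (0.69, adjusted p = 0.0554 by edgeR) and Fmod in ovariectomized females (-2.64, adjusted p = 0.139). With no concordant castrated ASC1 library, that alternative was not run for the 3 comparisons that use the group. Depth limits Fmod, with 0 to 8 reads per library outside ovariectomized ASC1, and Omd, with 0 to 4 reads in control ASC1.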
